A study of Mus musculus with 108 samples.

Results

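Early hemogenic endothelium (HE1) was examined in the reporter screen by setting the fragments of YFP-positive cells against those of YFP-negative cells. All sorted libraries labelled HE1 were used, 19 of the 95 sorted libraries in a series of 108 samples. In each of replicates 1 to 5 the Low, Medium, High and Medium/High lists were joined into 1 positive set, and the Negative list formed 1 Negative set. This gave 5 positive and 5 Negative sets, and distal and promoter fragments were kept apart throughout. Sites, genes and features were tested between the 2 groups of 5 sets without pairing by replicate. The question was which cloned fragments, loci or sequence features were listed more often in HE1 cells that expressed the reporter.

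All groups came from HM-1, 1 line of mouse embryonic stem cells. Open chromatin fragments cut out by the Tn5 transposase had been cloned before an HSP68 minimal promoter and a Venus-YFP gene, and the cassettes had been placed at Hprt, which they repaired. The cells were differentiated in serum and the KIT+ TIE2+ CD41- fraction was taken as HE1. Replicates 1 to 4 were sorted into Negative, Low, Medium and High gates, and in replicate 5 Medium and High were collected together. The groups compared differed in the YFP gate, and Negative cells carried the same kind of reporter. No label says whether the replicates were separate differentiations, so p-values measure the spread between these samples. The libraries hold reporter DNA and no RNA, and the labelled cell type could not be checked against expressed markers.

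Hemogenic endothelium is the endothelium from which the first blood cells emerge. It is an early stage at which RUNX1 begins to be expressed beside ETS factors, GATA2, TAL1 and SOX factors of the vessel wall, and at which Notch, AP-1 and TEAD factors are known to act. An enhancer is a stretch of DNA that raises transcription from a promoter, and in this type of screen a fragment with that ability turns a cell YFP positive. A cell in the Negative gate carries a fragment that did not do so at the time of the sort.

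The 19 HE1 libraries listed 666180 of the 2288814 fragments of the screen, 225437 distal and 440743 promoter fragments. These were 150295 and 290614 distinct fragments, of 68 to 600 bp. Library size ranged from 634 to 131091 fragments. Replicate 1 held 60273 to 131091 and replicate 2 held 39492 to 113943 fragments per library, against 840 to 6847, 634 to 11556 and 1169 to 1678 in replicates 3, 4 and 5. A fragment is listed once whatever its number of reads, so the read depth behind it is unknown. One distal fragment was worth 0.125 fragments per 10000 in the largest positive set and 26.4 in the smallest Negative set. A site with no fragment could have held up to 3, or 0.376 and 79.2 per 10000 in these sets. These limits cover counting error only.

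Libraries that shared many identical fragments stood apart from the rest. Negative replicate 1 and Medium replicate 2 had 31465 distal fragments in common, 78.9% of the smaller list, and Negative replicate 3 and Low replicate 4 had 1222, 80.8% of the smaller. Their promoter lists shared 57980 (78.4%) and 4461 fragments (83.7%). Measured by the Jaccard index, the shared part of both lists together, these pairs reached 58.9% and 42.5% over distal fragments, whereas no other pair within HE1 exceeded 17.2%. Each of these pairs joins a Negative and a positive library of different replicates. Whether these libraries were mixed with each other was not tested, and what positive and Negative stand for in positive sets 2 and 4 and Negative sets 1 and 3 is uncertain to that extent. The main results are therefore given with these 4 libraries and without them. In Negative replicate 3 only 12.8% of distal fragments had an identical fragment in a plasmid list, and in Low replicate 4 only 30.4%, against 59.8% to 89.9% in the other 17 libraries.

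**Figure D1:**
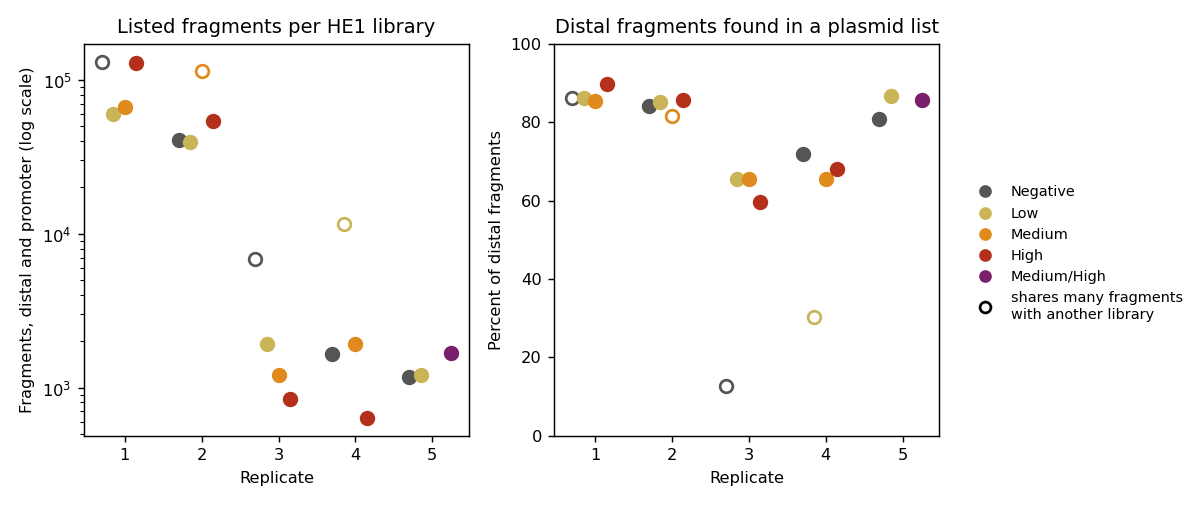
Left, listed fragments of each HE1 library (log axis) by replicate, and right, the percent of its distal fragments that were identical to a fragment of a plasmid list. Each point is 1 library, coloured by gate, and open points are the 4 libraries that share many fragments with another. Libraries of replicates 3 to 5 hold at most 11556 fragments, and Negative replicate 3 and Low replicate 4 lie far below the others in plasmid matches, at 12.8% and 30.4%.

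Fragments of the distal sites that lay furthest to one side are printed here, since the sites rest on only a few such molecules. A site is a stretch covered by overlapping fragments of any of the 95 libraries. For each, fragments of at most 300 bp with a midpoint outside exons were considered. The fragment found in most sets of its side was taken, from the plus strand of mm10, with matches on either strand to 6 motifs in capitals. The motifs searched were AGGAAG for ETS factors, AGATAA for the GATA family, TGTGGT for RUNX proteins, CAGCTG as an E-box, TGANTCA for AP-1 dimers and GGAATG for TEAD factors. The first 4 belong to sites listed in more positive than Negative sets, the next 2 to sites listed in more Negative sets, and the last to the element of Mecom that the study followed.
Maml3 fragment chr3:52046919-52047010: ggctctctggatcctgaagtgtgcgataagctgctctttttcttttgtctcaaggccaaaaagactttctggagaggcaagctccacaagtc
Fam19a3 fragment chr3:104714081-104714301: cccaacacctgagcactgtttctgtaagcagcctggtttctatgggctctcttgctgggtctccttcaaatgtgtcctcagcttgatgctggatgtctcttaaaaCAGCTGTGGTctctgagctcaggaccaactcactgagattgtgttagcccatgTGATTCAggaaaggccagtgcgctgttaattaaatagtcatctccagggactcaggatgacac
Skap1 fragment chr11:96735884-96736125: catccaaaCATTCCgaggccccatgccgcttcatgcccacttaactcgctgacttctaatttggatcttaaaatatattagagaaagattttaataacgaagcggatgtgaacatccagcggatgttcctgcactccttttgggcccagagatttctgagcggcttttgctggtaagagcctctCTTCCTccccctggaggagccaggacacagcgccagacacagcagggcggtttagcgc
Etv3 fragment chr3:87512467-87512648: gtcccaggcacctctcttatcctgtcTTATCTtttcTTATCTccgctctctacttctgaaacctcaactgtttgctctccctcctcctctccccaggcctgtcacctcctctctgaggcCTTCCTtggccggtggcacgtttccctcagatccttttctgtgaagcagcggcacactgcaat
Ankrd22 fragment chr19:34168058-34168189: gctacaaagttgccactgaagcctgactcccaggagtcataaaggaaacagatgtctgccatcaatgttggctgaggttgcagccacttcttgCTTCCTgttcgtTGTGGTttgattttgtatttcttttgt
Gnai2 fragment chr9:107626601-107626864: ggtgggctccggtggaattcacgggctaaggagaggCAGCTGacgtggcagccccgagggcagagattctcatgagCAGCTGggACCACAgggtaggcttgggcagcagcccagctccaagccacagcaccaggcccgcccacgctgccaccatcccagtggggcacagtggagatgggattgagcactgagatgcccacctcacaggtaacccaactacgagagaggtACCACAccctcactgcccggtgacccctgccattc
Mecom fragment chr3:30354193-30354442: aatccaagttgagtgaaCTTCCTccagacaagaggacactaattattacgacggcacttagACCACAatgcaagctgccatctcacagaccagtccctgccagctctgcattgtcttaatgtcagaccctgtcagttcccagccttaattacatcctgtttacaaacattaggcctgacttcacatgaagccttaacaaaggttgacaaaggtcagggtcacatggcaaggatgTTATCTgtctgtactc
The fragment in Maml3 held none of the 6 motifs and was listed in the positive sets of replicates 1, 2 and 5. The fragment 63101 bp from Fam19a3 carried CAGCTG and TGTGGT overlapping by 2 bases, and an AP-1 match. The fragment near Etv3 carried 2 GATA matches and 1 ETS match, and that of the Mecom element 1 ETS, 1 RUNX and 1 GATA match. The fragments from the Negative side held motifs too, ETS and RUNX near Ankrd22 and 2 E-box and 2 RUNX matches in Gnai2. The Gnai2 fragment was listed in Negative sets 1 and 2 but also in the High and Low lists of replicate 1, and it was in no plasmid list. Over 32851 RefSeq promoters of 300 bp (GRCm38.p6) the shares with a match were 35.4% for ETS, 11.2% for GATA, 16.8% for RUNX, 16.3% for the E-box, 7.81% for AP-1 and 14.7% for TEAD. A match describes the letters of a fragment and is not a measured binding site.

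Most distal sites were found on both sides. HE1 fragments covered 30814 of the 58911 distal sites of the screen. Positive sets listed 30160 of them and Negative sets 21659, and 21005 were in both, 69.6% of the positive and 97.0% of the Negative sites. The 5 positive sets held 138693 distinct distal fragments and the 5 Negative sets 57268. Of these 45666 were identical, 32.9% of the positive and 79.7% of the Negative fragments. Without the 4 libraries the identical part was 8.65% of 100485 positive and 63.4% of 13725 Negative fragments, and 31.9% of the positive and 95.3% of the Negative sites were in both. Promoter sites were shared still more, 12876 of 14016 positive and 12938 Negative sites, or 91.9% and 99.5%. When the 4 libraries were left out they were 69.3% and 99.5%.

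Sites listed on one side alone were mostly found in 1 or 2 sets. Among distal sites in no Negative set, 6570 were in 1 positive set, 2455 in 2, 126 in 3 and 4 in 4, and none was in all 5. In the other direction 619 distal sites were in 1 Negative set and no positive set, 34 in 2 and 1 in 3. The map of sites by number of sets shows that of the distal sites in all 5 positive sets 9 were also in 2 and 10 in 3 Negative sets. Without the 4 libraries 11487 distal sites were in 1, 6634 in 2, 442 in 3 and 15 in 4 positive sets and in no Negative set, when the Negative side kept 3 sets and 13725 fragments. These counts have no test, and the Negative side held fewer fragments in total.

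**Figure D2:**
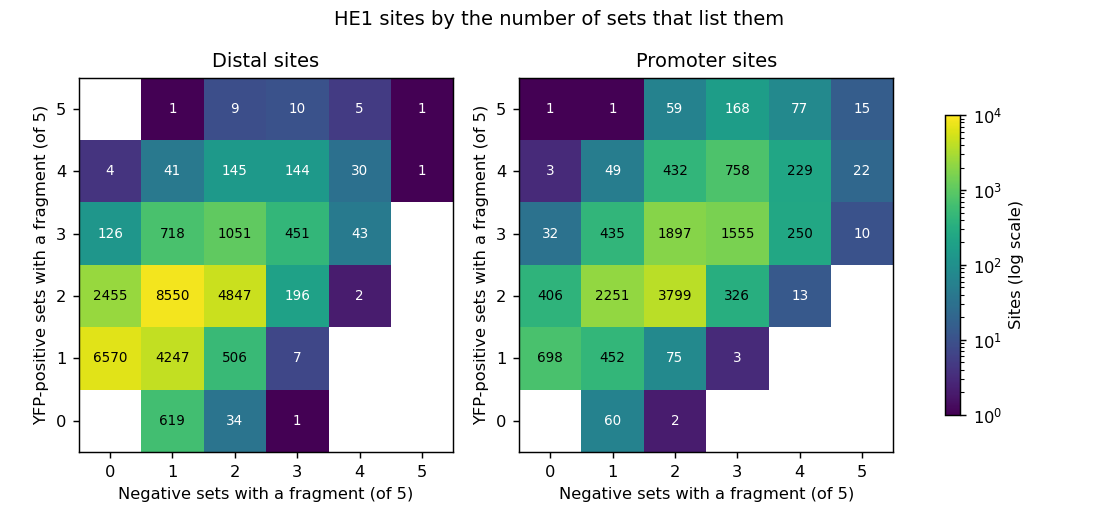
HE1 sites by the number of positive sets (y axis, of 5) and of Negative sets (x axis, of 5) that list a fragment in them, distal sites left and promoter sites right. Colour and number give the sites (log colour scale), and white cells hold none. Distal sites are most numerous at 2 positive and 1 Negative set (8550), and promoter sites at 2 and 2 (3799).

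Single distal sites were compared on log2 of fragments per 10000 listed distal fragments with 1 added. Only sites present in 4 or more of the 10 sets were tested. Of these 7706 sites 0 passed an adjusted p of 0.05 (0%, limma), and 3 (0.0389%) had an unadjusted p under 0.05. Chance alone would give about 385 at that level, so the test was too strict for these sparse sets. Its 0 calls therefore do not show that the sides were alike. The median log2 difference of all tested sites was -0.07. The only site with every positive set above every Negative set (0.013% of those tested) lay in an intron of Maml3, a coactivator of Notch signalling. No site had every positive set below every Negative set (0%). With those 4 libraries left out 1229 sites could be tested, 0 were called, 1 had an unadjusted p under 0.05, and the median log2 difference was 0.58.

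The Maml3 site (chr3:52046697-52047515, 57970 bp from the start of Maml3) held 10, 8, 1, 1 and 1 fragments in the positive sets of replicates 1 to 5 and 4, 0, 0, 0 and 0 in the Negative sets. That was 5.22 ± 4.73 per 10000 in positive and 0.178 ± 0.398 in Negative sets (SD, n = 5 each). The groups did not overlap, and the log2 difference of 2.08 ± 1.11 (SE) is a description, since the site met the minimum number of sets through its positive sets. In replicates 3 to 5 the positive value rests on 1 fragment each.

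The other 3 distal sites ranked by their excess of positive sets were in 4 positive sets and no Negative set. The intergenic site near Fam19a3, the gene of a secreted chemokine-like protein, held 3, 3, 0, 1 and 1 fragments in the positive sets (chr3:104714081-104714811). The site in an intron of Skap1, which encodes an adaptor protein of T cells (chr11:96735846-96736508, nearest start that of Snx11), held 4, 1, 0, 1 and 1. The intergenic site 12878 bp from Etv3, an ETS family repressor (chr3:87512077-87512982), held 1, 2, 0, 1 and 1. They were chosen for this pattern. All Negative sets were at 0, which in the 3 smaller Negative sets allows more than was seen in any positive set. They met the minimum of 4 sets only through the positive group, so no fold or test is given for them. After removal of the 4 libraries the site in Skap1 was still in 4 positive sets and the other 2 were in 3.

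In the reverse ranking, 3 fragments near Ankrd22 (chr19:34167863-34168235) came from the Negative sets of replicates 1, 2 and 3 and none from a positive set. The remaining 3 sites were also listed in positive cells. The site in an intron of Gnai2, an inhibitory G protein subunit (chr9:107626601-107627388), held 17 and 12 fragments in positive sets 1 and 2 and 0 in the others, against 7, 4, 1, 1 and 0 in Negative sets. It lay 388 bp from a transcription start of the annotation used here although it was deposited as distal. The exon of Mmp25, a membrane metalloproteinase (chr17:23629996-23630824), held 9 and 6 fragments in positive sets 1 and 2 and 4, 2, 1, 0 and 1 in Negative sets. The site of the Gm37047 transcript, 203940 bp from Pou3f3, held 4 in positive set 2 and 4, 1 and 1 in Negative sets 1 to 3. The log2 differences of these 3 sites, ranked for this pattern, ran from -1.59 to -0.80 with SE of 0.56 to 1.18 and are a description.

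Mecom encodes a zinc finger regulator of blood stem cells, and the element of the study lies in an intron. It is 115994 bp from the nearest annotated start of Mecom, a gene with several starts, and the study names it by its distance from another of them. The site that overlaps it (chr3:30353942-30354684) held 5, 6, 1, 0 and 0 fragments in positive sets and 5, 1, 0, 0 and 0 in Negative sets. Its level was 2.07 ± 3.80 per 10000 in positive and 0.377 ± 0.530 in Negative sets (SD, n = 5 each). The groups overlapped, with a log2 difference of 0.60 ± 0.69 (SE, limma, adjusted p = 0.9996). In the smaller set of libraries, that is without the 4, it was in 3 positive sets and 1 Negative set, and the difference was 0.68 (limma, adjusted p = 0.768).

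Promoter fragments gave no call either. Of 10102 promoter sites tested 0 passed (0%, limma), 36 (0.356%) had an unadjusted p under 0.05, and the median log2 difference was 0.01. Chance alone would give about 505 such p-values, so the test was too strict here as well. In 7 sites (0.0693%) every positive set lay above every Negative set, and in 0 (0%) the reverse held. With those 4 libraries left out 3777 sites were tested, 0 were called, 27 had an unadjusted p under 0.05, and the median log2 difference was 0.48.

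The promoter site of Myo10, an unconventional myosin of filopodia, was the only one found in all 5 positive sets and in no Negative set. It held 5, 1, 1, 1 and 1 fragments, 2.13 ± 2.40 per 10000 (SD, n = 5). It met the minimum number of sets only through the positive group, and no fold is given. The promoter of Zfp609, a zinc finger protein, held 9, 11, 1, 1 and 1 in positive sets and 4 in Negative set 1 alone. Those of Mnx1, a homeobox factor, and Usp51, a deubiquitinating enzyme, were in positive sets 1 to 4 and no Negative set, with 4, 3, 1 and 1 and 4, 1, 1 and 1 fragments. On the other side, the promoters of Apip, Msh3 and Acbd4 were in all 5 Negative sets and 3 positive sets, and that of 1810022K09Rik in 4 and 2. Acbd4, an acyl-CoA binding protein, held 16, 7, 3, 3 and 1 fragments in Negative and 24, 19, 0, 4 and 0 in positive sets, a log2 difference of -1.93 ± 0.86 (SE). Msh3, a mismatch repair protein, held 16, 7, 2, 1 and 1 in Negative and 36, 27, 0, 3 and 0 in positive sets. These sites were ranked by this same pattern, and the counts are a description.

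Fragments were then added up by the gene with the nearest transcription start, to group them by the biology of the stage. Of 5629 genes tested on distal fragments 0 passed (0%, limma) and 11 (0.195%) had an unadjusted p under 0.05, with a median log2 difference of -0.01. Of 10052 genes tested on promoter fragments 0 passed (0%, limma) and 32 (0.318%) had an unadjusted p under 0.05, with a median of 0.01. Chance alone would give about 281 such p-values on distal and 503 on promoter fragments, so the same limit applies to genes. Every positive set lay above every Negative set in 1 gene on distal fragments (0.0178%) and in 6 on promoter fragments (0.0597%), and the reverse was seen in 0 (0%) of either. The single distal case, named after its values were seen, was Fam19a3, with 9, 6, 1, 1 and 1 fragments in positive sets and 1 in Negative set 1. After removal of the 4 libraries 0 of 1630 and 0 of 3803 genes passed (limma), 6 and 30 had an unadjusted p under 0.05, and the medians were 0.67 and 0.48.

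Among transcription factors of hemogenic endothelium and blood, 16 of 22 genes could be tested on distal fragments. None passed, 11 were higher and 5 lower in positive sets, and the list median was 0.31 beside -0.01 for all genes, of which 47.9% were higher. With the sets of each replicate thinned to equal size the list median was -0.001 (6 higher, 7 lower), and without the 4 libraries it was 0.14 where all genes lay at 0.67. The 3 genes with most fragments were Runx1, Meis1 and Fli1. Runx1, the factor required for the passage from endothelium to blood, held 32, 48, 1, 0 and 1 distal fragments in positive and 30, 14, 0, 0 and 1 in Negative sets, so nearly all fragments came from replicates 1 and 2 and the groups overlapped. Its log2 difference was 0.20 ± 1.14 (SE, limma, adjusted p = 0.9996). Fli1, an ETS factor of vessels and blood, held 36, 49, 1, 0 and 0 against 31, 6, 0, 0 and 0. Meis1, a homeobox cofactor of HOX proteins, held 46, 45, 1, 0 and 0 against 27, 3, 1, 1 and 1, which gave 4.25 ± 4.04 and 12.1 ± 10.2 per 10000 (SD, n = 5 each) and a log2 difference of -1.51 ± 1.11 (SE, limma, adjusted p = 0.9996). Its Negative level comes mainly from 1 fragment in each of the 3 small sets.

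The most covered site at Runx1 was intergenic, 57943 bp from a start (chr16:92883749-92884435), and held 6 and 10 fragments in positive sets 1 and 2 and 8 and 5 in Negative sets 1 and 2. At Fli1 it was intergenic at chr9:32607078-32607763, with 13 and 26 against 20 and 3. Neither site had a fragment in replicates 3 to 5. On promoter fragments 18 of the 22 factors were tested, 7 higher and 11 lower, with a median of -0.04 where 53.0% of all genes were higher. At equal size 9 were higher and 8 lower. Without the 4 libraries 7 were tested, 3 higher and 4 lower, with a median of -0.69 where all genes lay at 0.48 and 67.8% were higher. Lyl1, a helix-loop-helix factor related to TAL1, held most, with 36, 39, 0, 0 and 3 in positive and 22, 5, 0, 0 and 0 in Negative sets (log2 difference 0.92 ± 0.73, SE, limma, adjusted p = 0.99996). Klf1, an erythroid factor, and Nfe2, a factor of platelet and red cell precursors, had log2 differences of -0.08 and -0.59.

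Endothelial genes lay on both sides. On distal fragments 22 of 25 were tested, 14 higher and 8 lower, with a median of 0.03. At equal size 8 were higher and 11 lower (median -0.03). In the smaller set of libraries 7 were higher and 4 lower (median 0.75), where all genes lay at 0.67 and 67.1% were higher. Egfl7, a secreted protein of vessel walls, held most, 51, 62, 2, 0 and 2 fragments in positive and 50, 9, 0, 0 and 0 in Negative sets, with a log2 difference of 1.69 ± 1.14 (SE, limma, adjusted p = 0.9996). That difference is a description, since Egfl7 met the minimum number of sets through its positive sets. Cdh5, the cadherin of endothelial junctions, held 39, 31, 0, 0 and 1 against 23, 8, 0, 0 and 0, and Kdr, the FLK1 receptor for VEGF, 37, 34, 0, 2 and 0 against 23, 5, 1, 0 and 0, with log2 differences of 0.65 and 0.03. On promoter fragments 18 were tested, 7 higher and 11 lower, with a median of -0.07, and at equal size 9 were higher and 6 lower (median 0.03). In the smaller set of libraries only 2 were tested. Egfl7 lay at -1.13 ± 0.85 (SE) there, Ets2, an ETS factor, at 0.25 and Tie1, a vascular receptor kinase, at -0.24. Nrp1, a VEGF co-receptor, on distal fragments (-2.19 ± 1.10, SE) and Ets1 on promoter fragments (1.60 ± 0.72, SE) were the list members with an unadjusted p under 0.05 (limma, adjusted p = 0.9996 and 0.99996), and both were named after their values were seen. Ets1 also met the minimum number of sets through its positive sets, so its difference is a description.

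For the Notch pathway, 12 of 15 genes were tested in either class. On distal fragments 4 were higher and 8 lower (median -0.11), and on promoter fragments 6 were higher and 6 lower (median 0.02). At equal size 2 were higher and 8 lower on distal fragments (median -0.40). With those 4 libraries left out 5 could be tested, 2 higher and 3 lower, with a median of -0.79 where all genes lay at 0.67. On promoter fragments 8 were higher and 3 lower at equal size (median 0.14). In the smaller set of libraries 4 were higher and 3 lower there (median 0.48), where all genes lay at 0.48. Hes1, a target of Notch, held 34, 33, 2, 0 and 0 distal fragments in positive and 24, 8, 1, 0 and 1 in Negative sets, a log2 difference of -0.81 ± 1.14 (SE, limma, adjusted p = 0.9996). The receptor Notch1 and the target Hey1 lay at 0.17 and 0.33. On promoter fragments Hes1, Hey2 and the coactivator Maml1 lay at -0.06, 0.64 and -0.23, and Notch3, named after its values were seen, at 1.40 ± 0.66 with an unadjusted p under 0.05 (SE, limma, adjusted p = 0.99996).

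In the list of AP-1, TEAD and YAP genes, Fos, which encodes a subunit of AP-1, was the gene with most distal fragments of all lists. It held 82, 91, 2, 1 and 2 in positive and 62, 13, 0, 0 and 0 in Negative sets. This was 13.6 ± 7.51 against 4.77 ± 6.66 per 10000 (SD, n = 5 each), and positive sets 1, 2 and 4 lay below Negative set 1, so the groups overlapped. In replicates 3 to 5 Fos rested on 1 or 2 fragments per positive set, and Negative sets 3 to 5 were at 0. A count of 0 allows up to 19.8, 56.8 and 79.2 per 10000 in those Negative sets. The log2 difference was 2.18 ± 1.11 (SE, limma, unadjusted p under 0.05, adjusted p = 0.9996), and 2.08 without the 4 libraries (limma, adjusted p = 0.764). These values are a description, since Fos met the minimum number of sets through its positive sets. The most covered of its sites (chr12:85454943-85455919, intergenic, 18459 bp from the start of Fos) held 34, 48, 1, 0 and 1 against 33, 5, 0, 0 and 0. Jun, its partner, and Tead1, a factor of the Hippo pathway, had distal differences of 0.79 and -0.13. Over the list 15 of 20 genes were tested, 8 higher and 7 lower, with a median of 0.02. In the smaller set of libraries 6 of 11 were higher (median 0.66), where all genes lay at 0.67 and 67.1% were higher. On promoter fragments 8 were higher and 7 lower (median 0.08), with 0.67 for Jun, -0.12 for Jund and 0.53 for Amotl2, an inhibitor of YAP. At equal size 5 were higher and 10 lower (median -0.08). In the smaller set of libraries 5 were higher and 1 lower (median 0.72), where all genes lay at 0.48 and 67.8% were higher.

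The remaining lists stand for other cells that a culture of this kind could hold or for loci used in every cell. Myeloid and progenitor genes had 6 higher and 10 lower of 16 tested on distal fragments (median -0.08), with 0.80 for Vav1, 0.76 for Cebpb and 0.14 for Irf8. On promoter fragments 4 were higher and 6 lower (median -0.05), with 0.79 for Itga2b, which encodes CD41, -0.09 for Cd34 and -0.83 for Csf2ra. Pluripotency genes had 5 higher and 4 lower (median 0.11), with 0.84 for Klf4, 0.42 for Esrrb and -0.15 for Tbx3, and 4 higher and 5 lower on promoter fragments (median -0.03), with 0.50 for Klf2, -0.51 for Klf5 and 0.06 for Tbx3. Mesoderm and cardiac genes had 6 higher and 8 lower (median -0.02), with 0.46 for Gata6, 0.63 for Hand1 and -0.002 for Hand2, and 5 higher and 7 lower on promoter fragments (median -0.02), with -0.13 for Gata6, -0.55 for Pdgfra and 0.68 for Snai1. Ribosomal protein genes had 4 higher and 4 lower on distal fragments (median 0.02), with 0.05 for Rplp1, 0.74 for Rpl3 and 0.88 for Rpl14. On promoter fragments, where 34 of 41 could be tested, 20 were higher and 14 lower (median 0.06), with 0.36 for Rpl27 and 0.18 for Rpl37. No gene of these lists passed the threshold (limma). Leaving out the 4 libraries, 0 genes of the 8 lists passed either, and list medians lay between -0.79 and 0.82 on distal and between -0.69 and 0.72 on promoter fragments. All genes then lay at 0.67 and 0.48.

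**Figure D3:**
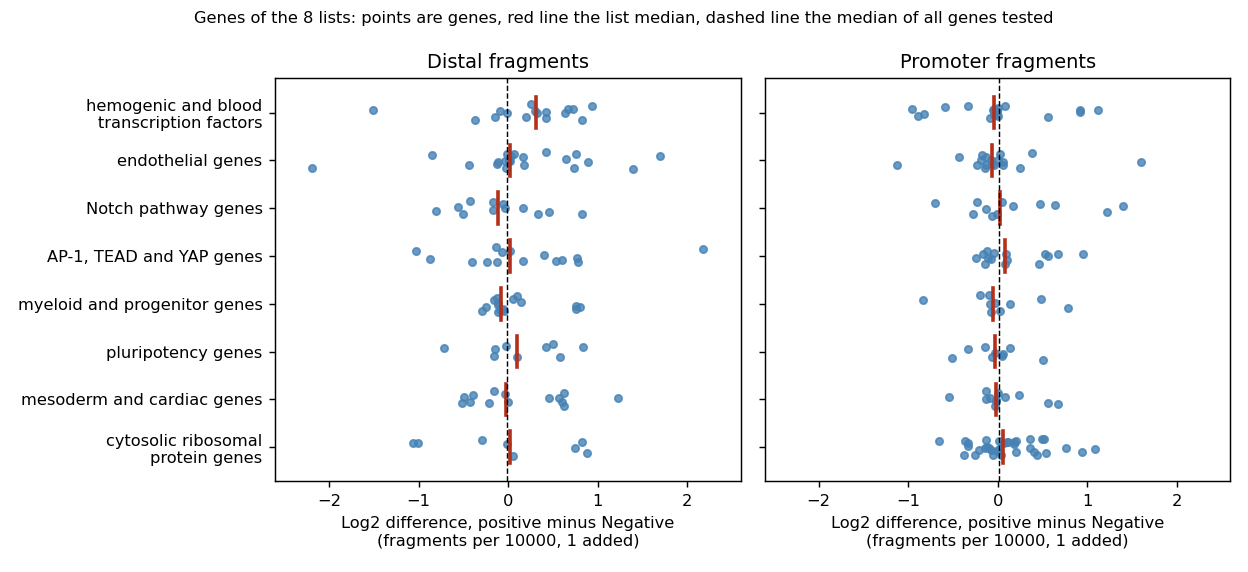
Log2 difference of positive minus Negative sets (x axis, fragments per 10000 with 1 added) of every tested gene of the 8 lists, on distal fragments left and promoter fragments right. Points are genes, red lines list medians and dashed lines the median of all genes tested. List medians run from -0.11 (Notch pathway) to 0.31 (hemogenic and blood transcription factors) on distal fragments and from -0.07 to 0.08 on promoter fragments, and no gene passed the threshold.

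The fragments themselves were compared by length, base composition, position and 16 motifs. None of 22 features passed the threshold in either class (exact two-sided permutation test of 5 against 5 sets, adjusted p of at least 0.956 for distal and 0.943 for promoter fragments). The smallest p this test allows is 0.00794, at which a single feature could not pass after adjustment over 22 features. The lack of calls therefore does not show that the sides were alike. The smallest p among distal features was that of the intergenic share. It was 40.7%, 40.5%, 40.4%, 39.5% and 41.9% in positive and 40.6%, 39.9%, 40.1%, 37.9% and 35.9% in Negative sets, higher in the positive set of 5 of 5 replicates though the groups overlapped. The difference was 1.73 percentage points (40.6% ± 0.861 against 38.9% ± 1.96, SD, n = 5 each, exact permutation p = 0.111, adjusted p = 0.956). Without the 4 libraries it was 1.75 points and higher in 2 of 3 replicates (exact permutation p = 0.375). Next came the CRE motif and the distance to the nearest start, with exact permutation p of 0.532 and 0.54.

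Motifs of the factors of this stage did not pass the threshold, which does not show that they were at like levels on both sides. An ETS match was in 36.5% ± 2.84 of positive and 37.7% ± 3.75 of Negative distal fragments, a RUNX match in 15.2% ± 1.03 and 15.4% ± 1.30, a GATA match in 10.4% ± 0.899 and 9.96% ± 1.36, and an AP-1 match in 11.1% ± 0.871 and 11.2% ± 0.855 (SD, n = 5 each). The cloned HE1 plasmid fragments that lay inside the sites, 203330 distal ones, had 39.5%, 15.4%, 11.1% and 12.3%. On promoter fragments AP-1 had the smallest p, at 2.49% ± 0.545 and 2.82% ± 0.314 (exact permutation p = 0.214, adjusted p = 0.943). The MEIS motif followed at 11.3% ± 1.87 and 12.4% ± 1.98 and the NFY motif at 7.81% ± 0.477 and 8.26% ± 0.990 (exact permutation p = 0.357 and 0.413). None of these differences passed the test, and the groups overlapped. RUNX in promoter fragments was higher in 3 of 3 replicates without the 4 libraries, 7.66% ± 0.555 (SD, n = 5) against 6.94% ± 0.469 (SD, n = 3), with an exact permutation p of 0.107 and an adjusted p of 0.946. With all libraries it was 7.90% ± 1.00 against 7.63% ± 1.55 (SD, n = 5 each, exact permutation p = 0.722). In the same reduced promoter sets the E-box and MEIS motifs were lower in 3 of 3 replicates, and RUNX in distal fragments did not keep 1 direction.

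Negative set 3 and positive set 4, which share their fragments through Negative replicate 3 and Low replicate 4, moved together in these measures. Their distal fragments had a median length of 343 and 307 bp against 166 to 231.5 bp in the other 8 sets. They also held most GC boxes (35.6% and 29.6%, against 14.8% to 20.1%) and most E-box matches (26.0% and 21.1%, against 13.7% to 19.3%). Longer fragments have more positions for a motif, and the part of length in these shares was not tested apart from the alternative of matches per kilobase, in which no feature passed the threshold either.

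**Figure D4:**
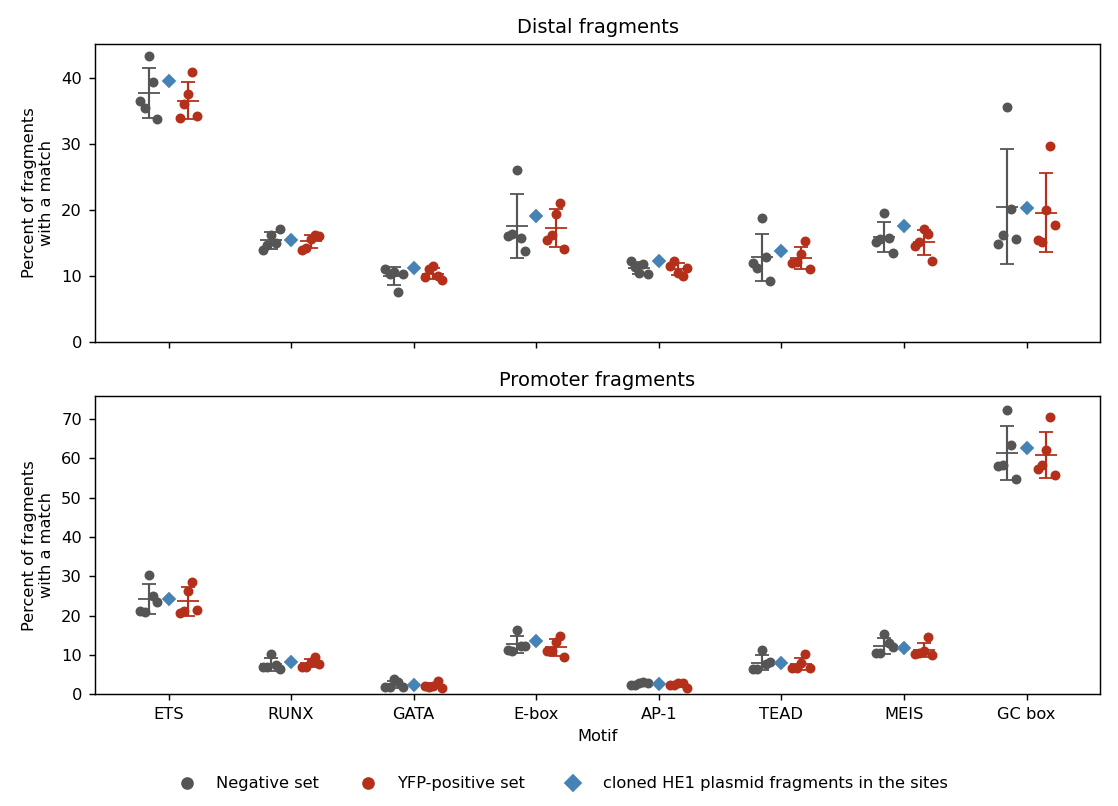
Percent of fragments with at least 1 match to each of 8 motifs (y axis), distal fragments above and promoter fragments below. Points are the sets of replicates 1 to 5 from left to right, bars the mean and SD (n = 5), and diamonds the cloned HE1 plasmid fragments inside the sites. Positive and Negative sets overlap for every motif shown, and the third Negative and the fourth positive set are highest for the E-box and the GC box.

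Whether these differences were particular to HE1 was tested against the stages before and after it. For each feature and class the difference of positive minus Negative was compared between HE1 and the FLK1-positive hemangioblast (HB), and between HE1 and the later hemogenic endothelium (HE2), with 5 replicates each. The differences were taken between sets of the same number, although the HE1 numbers were not shown to pair the samples. Libraries of different stages shared fragments too. HE1 Negative replicate 4 and HE2 Negative replicate 4 had 248 distal fragments in common, a Jaccard index of 31.2%. The test took the differences of 2 stages as independent, so its p-values make no allowance for such sharing. None of the 44 features passed the threshold after adjustment in either comparison. A single feature could not pass, since the test allows an exact permutation p of at least 0.00794. The smallest p was that of the OCT motif in promoter fragments, where the difference was -0.06 ± 0.08 points in HE1 and 0.09 ± 0.04 in HB (SD, n = 5 each, exact two-sided permutation p = 0.00794, adjusted p = 0.349). Against HE2 it was the RBPJ motif in promoter fragments, at -0.13 ± 0.32 against 0.55 ± 0.76 points (exact two-sided permutation p = 0.0873, adjusted p = 0.992). The GATA motif in distal fragments had 0.40 ± 1.48 points in HE1 and -1.04 ± 0.98 in HB (exact two-sided permutation p = 0.119, adjusted p = 0.995). Without the 4 libraries HE1 kept 3 such differences, and again no feature passed. A single feature could not pass here either, since 56 splits allow an exact permutation p of at least 0.0179. The smallest p were then those of the RUNX and OCT motifs in promoter fragments against HB, where the RUNX difference was 0.75 ± 0.59 points in HE1 (SD, n = 3) and -0.47 ± 0.50 in HB (SD, n = 5, exact two-sided permutation p = 0.0179, adjusted p = 0.393).

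A fragment listed in positive cells was often listed in Negative cells as well, and the amount depended on which replicates were paired. Distal sets of the same replicate shared 17.4%, 37.8%, 7.86%, 56.4% and 28.5% of the smaller set in replicates 1 to 5. Their mean was 29.6% ± 18.8 (SD, n = 5) against 15.3% for sets of different replicates, which did not pass the threshold (exact one-sided permutation test over 120 pairings, p = 0.158). The largest overlaps joined different replicates, 76.8% for positive set 2 with Negative set 1 and 80.9% for positive set 4 with Negative set 3. Without the 4 libraries 3 replicates kept both sets, and they shared 35.3%, 32.01% and 28.5%. Their mean was 31.9% ± 3.39 (SD, n = 3) against 5.35% for other pairs, with p = 0.167, the smallest that 6 pairings allow in the exact permutation test. Promoter sets behaved alike, at 31.1% ± 19.5 (SD, n = 5) against 15.9% (exact permutation p = 0.167) and, without the 4 libraries, 32.3% ± 5.00 (SD, n = 3) against 6.84%. Even without them, positive set 2 shared 22.4% of Negative set 5, so overlap between replicates was not confined to the 4 libraries. Positive sets 1 and 3 were not in this smaller comparison, since their Negative sets were among the 4 libraries. Positive set 1 shared 50.8% of Negative set 2 on distal and 50.2% on promoter fragments. Positive set 2 shared less of Negative set 2 there, 35.3% and 37.3%, so the contrast of 3 replicates depends on which sets were kept.

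**Figure D5:**
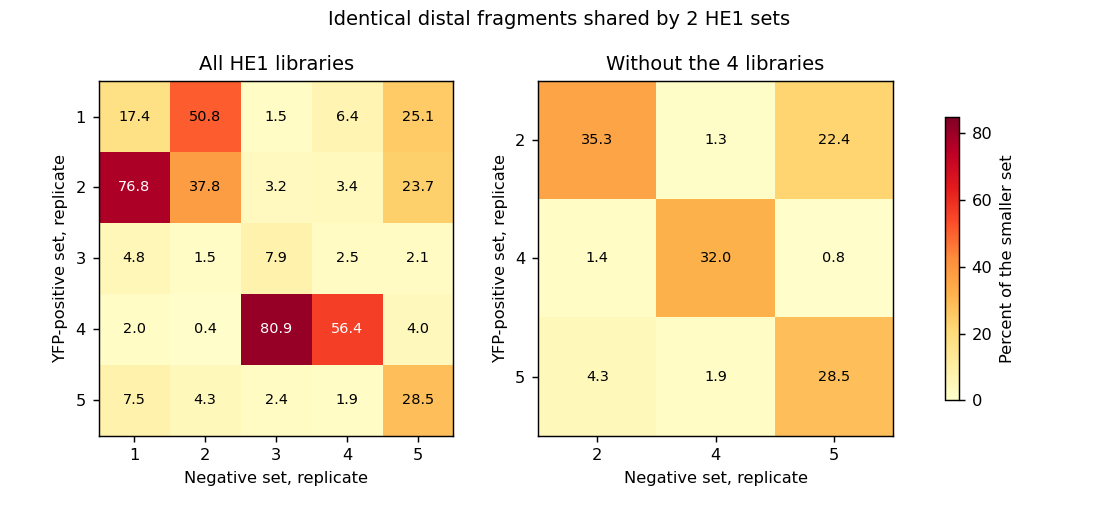
Identical distal fragments shared by a positive set (rows, by replicate) and a Negative set (columns, by replicate), as a percent of the smaller set, with all HE1 libraries left and without the 4 libraries right. With all libraries the highest values lie off the diagonal, at 80.9% and 76.8%, and without them the diagonal holds the highest value of each row, 28.5% to 35.3%.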

How the data were processed

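Reporter DNA of 95 sorted libraries was listed as genomic intervals, of which 19 were HE1. According to the study's methods and the labels, the authors combined a first and a repeat sequencing run, trimmed reads with TrimGalore, aligned them with Bowtie2 to mm10, removed duplicates, removed fragments found in HM-1 controls, and kept those in the plasmid libraries and in open chromatin peaks. The authors divided fragments into distal and promoter by distance to a transcription start. The deposited sorted lists hold each fragment once with no read number, so the values are presence or absence, and PCR preceded sequencing. The deposited plasmid and control lists hold read counts per fragment, of which only the intervals were used here. Starts of the plasmid and control lists were raised by 1 bp to match the sorted lists, whose coordinates were kept as deposited. With this shift 80.8% of the distinct HE1 fragments had an identical fragment in a plasmid list. The sorted lists thus also hold fragments that the plasmid lists, as matched here, do not.

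Overlapping fragments of all 95 libraries were merged into sites, and 351 HE1 entries on unplaced sequences were left out. Distinct fragments per site, and per gene with the nearest start (GENCODE vM21), were divided by the class total of their set, multiplied to 10000, increased by 1 and taken to log2. Features present in at least 4 of 10 sets were tested with limma 3.58.1 in R 4.3.3, without a block, at a Benjamini-Hochberg adjusted p of 0.05. The share, length and position of fragments were compared by exact two-sided permutation of 5 against 5 sets, and shared fragments by an exact one-sided permutation of pairings (full enumeration in Python 3.11.15). Scripts were tested on simulated data. Sites and genes were named by a rule on the number of sets, on the number of fragments in 8 lists of genes and on the threshold, and the members and lists were chosen with earlier results of these data known. One site and 1 gene are not reported here. Alternatives were the filter, the amount added, array weights, equal depth, High gates only, plasmid-matched fragments, the replicate block, matches per kilobase, each replicate left out and the 4 libraries left out.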

Additional observations from a re-analysis of the deposited data

Results flagged for a closer look

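Within groups of 5 sets or libraries 100 quantities were examined, and in 19 the highest or lowest value lay further from the others than Dixon's limit, where chance gives about 1 in 20. Most came from Negative replicate 3 or from positive set 4, which holds Low replicate 4, and these libraries share 1222 distal fragments. Negative replicate 3 had 22.1% distal fragments (others 31.9% to 34.3%), and 12.8% of its distal and 13.8% of its promoter fragments were identical to a plasmid fragment (others at least 72.0% and 70.7%). Its distal fragments held the CRE motif in 1.72%, the E-box in 26.0% and the GC box in 35.6%. Its promoter fragments held the CEBP motif in 5.68%, the E-box in 16.3% and RUNX in 10.3%, with 23.5% intergenic, a median distance of 132 bp to the start and a median length of 344 bp (others 205 to 243 bp).

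In positive set 4, distal fragments held CEBP in 7.64% and NFY in 4.75%. Its promoter fragments held GATA in 3.54%, MEIS in 14.5% and STAT in 3.00%, with a median length of 326 bp (others 196 to 231 bp). The GATA motif in distal fragments of Negative replicate 4 was low, at 7.58% against 10.3% to 11.0% in the other 4 sets.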

How the results depend on the processing

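Over 9 comparisons 105 alternative settings were tried, and 100 kept the count of calls or the side of the threshold. Not all of them could change side, and a single fragment feature could pass in none. The smallest p possible was 0.0625 for features with the replicate block (exact sign-flip test). For shared fragments without the 4 libraries it was 0.167 (exact permutation of 6 pairings). The settings that did change the count were all on distal fragments. Without the filter on sets 2 sites passed, both lower in positive sets, and 1 site, also lower, passed with plasmid-matched fragments only and 1 per 10000 fragments of both classes, a setting chosen after seeing the data. The cause was not tested. With array weights 5669 distal sites (5666 higher) and 4497 genes (4465 higher) passed. The distal site weights were 142 and 93.7 for Negative sets 5 and 4, at most 4.84 for the other 8 sets, and the estimation of weights stopped before convergence in 3 fits, so these counts are not usable as calls. On promoter fragments 0 passed (limma). Tbx3 on distal fragments turned from -0.15 to 1.75 under array weights.

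Leaving out each replicate in turn gave 0 to 0 calls for sites, genes and features. The excess of shared fragments in sets of the same replicate ranged from 5.92 to 21.8 points on distal and from 6.27 to 22.3 on promoter fragments. With the replicate block 0 sites and 0 genes passed in either class, with 2, 30, 19 and 28 unadjusted p-values under 0.05 in distal sites, promoter sites, distal genes and promoter genes. Deviations of same-numbered sets correlated at -0.04 to -0.02 in replicate 3 and at 0.12 to 0.46 in the others, so the numbers were not taken as pairing in the tests of sites, genes and features. By the same measure 1 of 5 positive and 2 of 5 Negative sets correlated best with the set of their own number, in each of the 4 tables. This measure included the 4 libraries that share many fragments. Without them same-numbered distal sets shared 31.9% of the smaller set against 5.35% for other pairs. That comparison left out positive sets 1 and 3, and positive set 1 shared 50.8% of Negative set 2. Of 873 single values under alternatives 72 had the opposite sign, 25 of them with a replicate left out, and 20 passed the threshold, all under array weights.

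The small sets limit these results. In replicates 3 to 5 a site rests on 1 or a few fragments, and without the 4 libraries the median of all distal sites moved from -0.07 to 0.58, so signs there are relative to that shift. The minimum of 4 sets could then be met by positive sets alone but not by the 3 Negative sets alone. Read depth behind a fragment is unknown.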
